A study of Mus musculus with 15 samples.

Results

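The 6 genes for growth factors and secreted proteins of the mouse submandibular gland described here are the growth factor genes Egf and Tgfa, the renin gene Ren1, the cysteine-rich secretory protein genes Crisp1 and Crisp3, and the secreted protease gene Prss12. They were taken by name from a list that was drawn up with earlier results of these data known. They are 6 of the 39179 genes in the count tables, and all 6 were found and passed the filter on low counts. The glands came from male C57BL/6 mice described as adult, and whole-gland RNA was read in 15 libraries that fall into 5 groups of 3. The IR+Shh, IR+Gli1 and IR+GFP groups were glands irradiated locally that also received a transfer of Shh, Gli1 or green fluorescent protein (GFP) into the gland, the IR group was irradiated without a transfer, and all of these were taken at day 7 after irradiation. The NT group was not treated. Shh encodes a ligand that cells secrete to start Hedgehog signalling, and Gli1 a transcription factor at the end of that pathway. The labels name neither the vector and promoter of the transfers nor the radiation dose, and do not tie libraries to animals. The p-values below therefore set group differences against the spread among these samples only, and need not extend to other animals.

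The granular convoluted tubules are a part of the duct system of rodent submandibular glands that lies between the intercalated and the striated ducts. They are best developed in adult males, depend on androgens and thyroid hormone, and store growth factors, renin and kallikrein proteases in granules that are released into saliva. Epidermal growth factor and transforming growth factor alpha both bind the EGF receptor, and both are made as membrane-bound precursors from which proteases release the ligand.

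In each group a pair of libraries (IR+Shh 1 and 3; IR+Gli1 1 and 2; IR+GFP 1 and 2; IR 1 and 2; NT 2 and 3) differed by less than sampling noise and was counted as 1 sample, which left n = 2 samples per group. Libraries held 18205941 to 41064723 gene reads. Levels are read counts relative to the gene reads of the sample, with its size scaled by the trimmed mean of M values (CPM). That scaling factor was 1.72 and 1.31 in the IR+Gli1 samples, against 0.865 to 0.994 in the others, and scaling by total reads alone moved the median log2 fold change of all genes between IR+Gli1 and IR+GFP to 0.79. Mouse Gli1 itself stood at 3.46 ± 1.1 CPM in IR+Shh, 0.605 ± 0.0929 CPM in IR+Gli1, 0.66 ± 0.151 CPM in IR+GFP, 0.657 ± 0.0652 CPM in IR and 0.56 ± 0.0657 CPM in NT (mean ± SD of 2 samples), and Shh had 0 reads in all libraries. As the species of the transferred genes is not in the labels, these reads do not check the transfers.

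The 2 Crisp genes lie next to each other on chromosome 17 (GRCm38), both on the minus strand: Crisp3 (ENSMUSG00000025433) at chr17:40221777-40242288 and Crisp1 (ENSMUSG00000025431) at chr17:40293758-40319207. No other annotated gene lies wholly in the 51469 bases between them. Their promoters, from RefSeq (GRCm38.p6) and running from 250 bases before to 50 bases after the start site, are shown because the sequences are near copies while the levels of the genes are far apart. They cover chr17:40319158-40319457 for Crisp1 and chr17:40242239-40242538 for Crisp3 and are written 5′ to 3′ on the minus strand, and capitals mark the 13 of 300 bases at which they differ (95.7% identity).
Crisp1: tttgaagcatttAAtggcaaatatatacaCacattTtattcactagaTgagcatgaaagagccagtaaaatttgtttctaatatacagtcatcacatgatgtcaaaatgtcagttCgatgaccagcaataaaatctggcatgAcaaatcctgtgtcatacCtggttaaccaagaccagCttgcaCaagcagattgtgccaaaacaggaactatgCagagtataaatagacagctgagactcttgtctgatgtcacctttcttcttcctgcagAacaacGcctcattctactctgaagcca
Crisp3: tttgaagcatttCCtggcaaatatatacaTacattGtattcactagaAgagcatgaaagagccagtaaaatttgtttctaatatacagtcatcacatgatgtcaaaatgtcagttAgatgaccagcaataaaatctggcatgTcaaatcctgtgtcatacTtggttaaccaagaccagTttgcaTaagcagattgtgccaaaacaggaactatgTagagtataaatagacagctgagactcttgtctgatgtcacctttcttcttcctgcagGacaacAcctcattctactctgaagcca
The longest transcripts are 91.1% identical over 1397 aligned bases, and 2.41% of the 50-base windows of either occur without a mismatch in the other. Windows with a few mismatches were not counted, so how well reads of the 2 genes were told apart was not tested. Both promoters hold the TATA box letters TATAAA at position -31. So does that of Ren1 (chr1:133350424-133350723, plus strand), shown because it is the only other of the 6 with this box, which stands in capitals at position -29.
Ren1: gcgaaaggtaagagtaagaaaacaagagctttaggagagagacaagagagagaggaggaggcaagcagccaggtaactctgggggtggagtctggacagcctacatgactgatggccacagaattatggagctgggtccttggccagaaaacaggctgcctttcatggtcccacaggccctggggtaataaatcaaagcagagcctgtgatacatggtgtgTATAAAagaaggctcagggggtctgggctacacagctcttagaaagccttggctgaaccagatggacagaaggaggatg
TATAAA, searched on both strands, occurs in 13.6% of the 32851 mouse promoters in the table, and was not found in those of Egf, Tgfa and Prss12. The letters AGAACA, the core of the site bound by steroid receptors, were found only in Crisp1, at position 21, against 19% of all promoters.

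Of the 2 growth factor genes, Egf was among the most abundant transcripts of the gland and Tgfa among the scarce ones. Egf (ENSMUSG00000028017) lies at chr3:129677565-129755316 on the minus strand, with 11275 bases of merged exons. The antisense genes Gm42697 and 6330410L21Rik overlap its exons and hold 19.5% of its 50-base windows; as the strand setting of the counting is not given, reads from both strands cannot be told apart there. Egf had 29683 and 36637 CPM in the IR+Shh samples, 6389.7 and 18711 CPM in the IR+Gli1 samples, 54207 and 50266 CPM in the IR+GFP samples, 79143 and 53087 CPM in the IR samples, and 61477 and 59044 CPM in the NT samples. Both IR+Gli1 samples were below all others, both IR+Shh samples lay between them and the remaining groups, and IR overlapped NT. By mean CPM per total reads Egf ranked 6 of 39179 genes in IR+Gli1 and 3 in IR+Shh, IR+GFP and NT.

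Tgfa (ENSMUSG00000029999) lies at chr6:86195223-86275719 on the plus strand, with 6490 bases of merged exons. Its reads numbered 464 and 168 in the IR+Gli1 samples and 66 to 154 in the other samples. The levels were 4.42 and 5.68 CPM in IR+Shh, 8.36 and 6.64 CPM in the IR+Gli1 samples, 4.69 and 4.61 CPM in IR+GFP, 3.84 and 3.57 CPM in IR, and 4.40 and 4.26 CPM in NT. Both IR+Gli1 samples were above all 8 others, the reverse of Egf, and the other groups lay close together. Per kilobase of merged exons, Egf and Tgfa differed widely: in NT, Egf averaged 5345 ± 153 CPM per kb and Tgfa 0.667 ± 0.0154 CPM per kb (SD, n = 2).

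Renin, the aspartyl protease that releases angiotensin I from angiotensinogen, is encoded in C57BL/6 mice by Ren1 (ENSMUSG00000070645, chr1:133350510-133360325, plus strand, 1657 bases of merged exons). Ren1 had 33.4 and 29.0 CPM in IR+Shh, 24.9 and 83.4 CPM in the IR+Gli1 samples, 58.9 and 45.0 CPM in IR+GFP, 74.8 and 54.8 CPM in IR, and 68.8 and 76.1 CPM in NT. The IR+Gli1 samples held both the lowest and the highest of the 10 values, so that their mean of 54.1 ± 41.3 CPM (SD, n = 2) describes neither. Both IR+Shh samples were below those of IR+GFP, IR and NT.

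Crisp1 and Crisp3 encode secreted proteins of the CAP superfamily that are known from the epididymis and salivary glands and depend on androgens there. Crisp3 had 26742 and 27844 CPM in IR+Shh, 12999.7 and 17616 CPM in the IR+Gli1 samples, 40835 and 33837 CPM in IR+GFP, 46547 and 36418 CPM in IR, and 52738 and 47596 CPM in NT. It ranked 4 or 5 among all genes in every group. Crisp1 had 272 and 347 CPM in IR+Shh, 74.8 and 141 CPM in the IR+Gli1 samples, 629 and 670.4 CPM in IR+GFP, 1366 and 677 CPM in IR, and 1134 and 1665 CPM in NT. The groups had the same order for both genes: IR+Gli1 lowest, then IR+Shh, IR+GFP, IR and NT. Neighbours in this order overlapped between IR and NT for Crisp1 and between IR+GFP and IR for Crisp3.

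Although both were lowest in IR+Gli1, the Crisp genes did not keep a fixed ratio. Crisp3 had 98.4 and 80.1 times the reads of Crisp1 in the IR+Shh samples, 174 and 125 times in IR+Gli1, 64.9 and 50.5 times in IR+GFP, 34.1 and 53.8 times in IR, and 46.5 and 28.6 times in NT. These ratios are within a sample and do not depend on scaling. They were highest in the IR+Gli1 samples, next in both IR+Shh samples, and lower in all 6 others; they were not tested.

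Prss12 encodes neurotrypsin, a secreted serine protease known for cleaving agrin at synapses (ENSMUSG00000027978, chr3:123446913-123506597, plus strand, 2602 bases of merged exons). The antisense gene Gm35065 overlaps its exons and holds 4.23% of its 50-base windows. Prss12 had 3.25 and 4.79 CPM in IR+Shh, 0.576 and 1.50 CPM in the IR+Gli1 samples, 4.95 and 6.64 CPM in IR+GFP, 9.11 and 4.92 CPM in IR, and 5.04 and 5.21 CPM in NT. Both IR+Gli1 samples, with 32 and 38 reads, were below the 8 others. Such low levels give no sign of which cells the transcripts came from, and in whole glands fewer cells of a type and less RNA per cell cannot be told apart for any of the 6 genes.

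**Figure D1:**
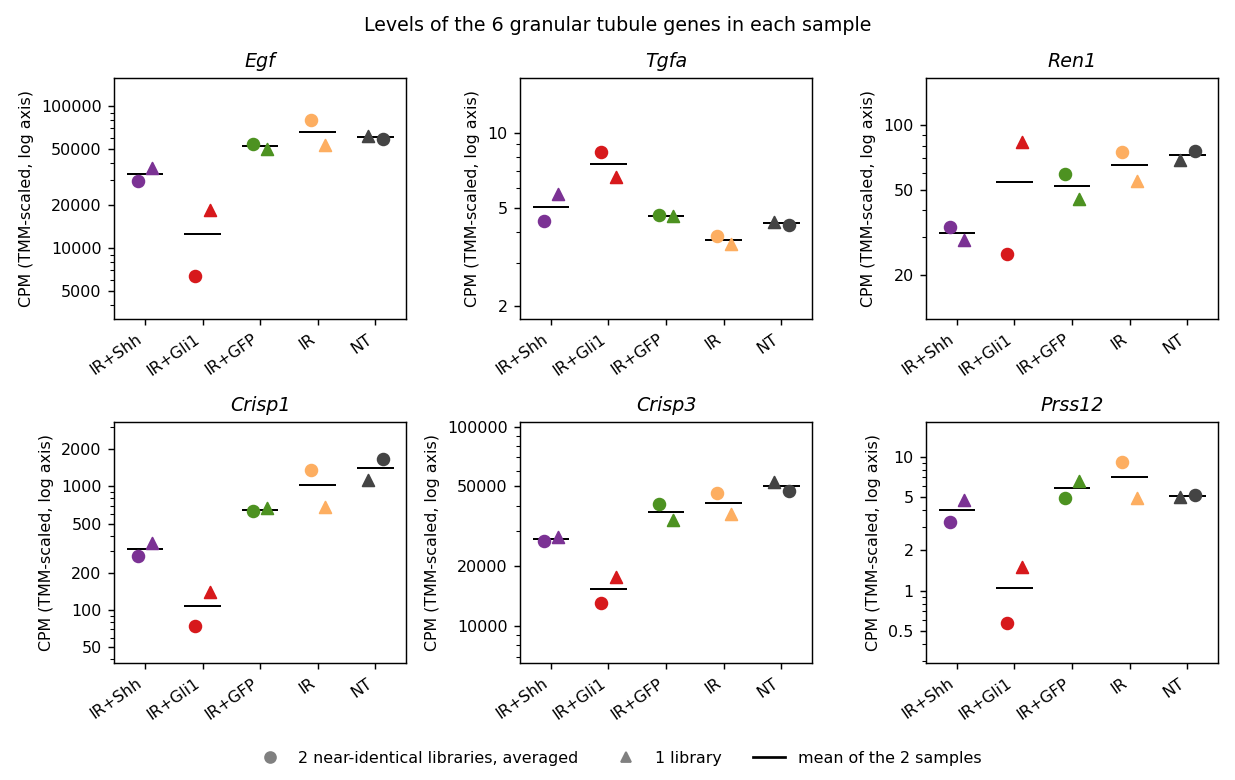
Level of each of the 6 genes in each sample, in CPM on a log axis, by group; circles are samples made of a pair of near-identical libraries, triangles are single libraries, and lines are the means of the 2 samples. Egf, Crisp1, Crisp3 and Prss12 were lowest in the IR+Gli1 samples, Tgfa was highest there, and Ren1 split between 24.9 and 83.4 CPM.

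In the test for any difference among the 5 groups (edgeR quasi-likelihood F test, Benjamini-Hochberg over all genes), 5 of the 6 genes passed, and 15.5% of all 14300 genes tested did. Crisp1 had the smallest adjusted p (0.00721), followed by Crisp3 (0.00938), Prss12 (0.0252), Tgfa (0.0304) and Egf (0.0341). Ren1 did not pass (adjusted p = 0.459). Fewer of the 6 passed without NT 2-3, IR 1-2, IR 3, IR+GFP 1-2, IR+GFP 3, IR+Shh 1-3 or IR+Shh 2. Each of these fits leaves 1 sample in a group, so this need not be particular to the 6 genes.

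The comparison of IR+Gli1 with IR+GFP asked what the transfer of Gli1 changed in irradiated glands beyond a transfer as such. Of the 6 genes, 4 fell and 1 rose, where 5.71% of all genes tested fell and 8.23% rose (13.9% in either direction). Crisp1 fell most, to 108 ± 46.6 CPM in IR+Gli1, against 649.8 ± 29.2 CPM in IR+GFP (SD, n = 2 each; log2 fold change -2.59 ± 0.42 SE, edgeR quasi-likelihood test with Benjamini-Hochberg adjustment, adjusted p = 0.00894). Prss12 fell by a similar factor, averaging 1.04 ± 0.654 CPM in IR+Gli1, against 5.79 ± 1.20 CPM in IR+GFP (-2.56 ± 0.47, adjusted p = 0.0106). Egf averaged 12550.2 ± 8712 CPM in IR+Gli1, against 52237 ± 2787 CPM in IR+GFP, 4.16-fold lower (-2.06 ± 0.44, adjusted p = 0.0183). Crisp3 was 2.44-fold lower, at 15308 ± 3264 CPM in IR+Gli1, against 37336 ± 4949 CPM in IR+GFP (-1.29 ± 0.23, adjusted p = 0.00927). Tgfa alone rose, 1.62-fold, with 7.50 ± 1.22 CPM in IR+Gli1, against 4.65 ± 0.0552 CPM in IR+GFP (0.69 ± 0.19, adjusted p = 0.042). The samples of both groups did not overlap for these 5 genes, as for 56.1% of all genes. Ren1 did not pass (0.05 ± 0.52, adjusted p = 0.972).

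These calls rested on the spread shared by the 5 groups and on few samples. With IR+Gli1 and IR+GFP fitted alone, 0 of the 6 genes passed (adjusted p = 0.0745 to 0.136 for the 5 that passed otherwise), and 1 of all 13766 genes did. Without IR+GFP 1-2, IR+GFP 3 or IR+Gli1 1-2, fewer of the 6 and fewer of all genes passed. Each of these fits leaves 1 sample in a group, and the fold changes of the 5 kept their direction. The sizes of Egf and Prss12 moved most with the IR+Gli1 samples. Egf stood at -3.04 without IR+Gli1 3 and -1.49 without IR+Gli1 1-2, and Prss12 at -3.32 and -1.95. Scaling by total reads put the median of all genes at 0.79, and the same 5 genes passed, as did 68.2% of all genes. Egf was then 2.58-fold lower (-1.37), Crisp1 3.66-fold (-1.87), Prss12 3.51-fold (-1.81) and Crisp3 1.44-fold (-0.53), and Tgfa 2.83-fold higher (1.50). Tgfa passed in 15 of 25 alternative settings and missed the threshold with DESeq2 (adjusted p = 0.0788). It also missed without IR 1-2, IR 3, IR+Shh 1-3 or IR+Shh 2. Without IR+Gli1 3, Ren1 stood at -1.07.

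Markers of other cells moved along with this comparison. Of 9 leukocyte markers, 7 were tested and 6 rose in IR+Gli1 against IR+GFP, among them C1qb (1.61 ± 0.17, adjusted p = 0.00164) and Cd68 (2.38 ± 0.35, adjusted p = 0.00553). Their summed level was 200.2 and 279 CPM in IR+Gli1, against 55.9 and 83.3 CPM in IR+GFP, with the T and B cell markers Cd3e and Cd79a near 0 in both. The 7 acinar markers summed to 12114 and 43945 CPM in IR+Gli1, against 31413 and 53724 CPM in IR+GFP, and 2 of them passed as lower: Bhlha15 (-0.82 ± 0.21, adjusted p = 0.0319) and Amy1 (-0.75 ± 0.19, adjusted p = 0.0313). Per total reads Amy1 and Bhlha15 were nearly level, at 1.01 and 0.945 times IR+GFP. Aqp5, Pip and Prol1 stood at 1.22, 1.12 and 1.03 times, Bpifa2 at 0.216 times and Smgc at 0. Bpifa2 and Smgc differed between the IR+GFP samples, at 2.95 and 22.2 CPM for Bpifa2 and 0.0615 and 1.11 CPM for Smgc. Bpifa2 also ranged from 0.152 to 1602 CPM in NT. Smgc had 145 CPM in NT 2-3 and 0 to 1.11 CPM in all other samples. The 11 markers of other ducts summed to 1565 and 1823 CPM in IR+Gli1, against 1332 and 1411 CPM in IR+GFP, and 1 rose, the keratin Krt8 (0.54 ± 0.13, adjusted p = 0.0282). The 6 basal and myoepithelial markers summed to 567 and 773 CPM in IR+Gli1, against 836 and 855 CPM in IR+GFP. Of these 2 rose, the basal cell genes Trp63 (0.78 ± 0.20, adjusted p = 0.0333) and Krt5 (0.50 ± 0.13, adjusted p = 0.0355), and the smooth muscle genes Myh11 (-0.81 ± 0.24, adjusted p = 0.0577) and Cnn1 (-0.54 ± 0.19, adjusted p = 0.0917) did not pass. Reads with several alignments, which were not counted, made up 7.53% to 8.22% in IR+Gli1 3 and IR+GFP 3 and 2.89% to 4.79% in the other libraries. Leaving out these 2 samples left 1 in each of their groups, with Ren1 lower (-1.25) and Tgfa falling short (0.82). The part of cell mixture in the result was not tested.

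**Figure D2:**
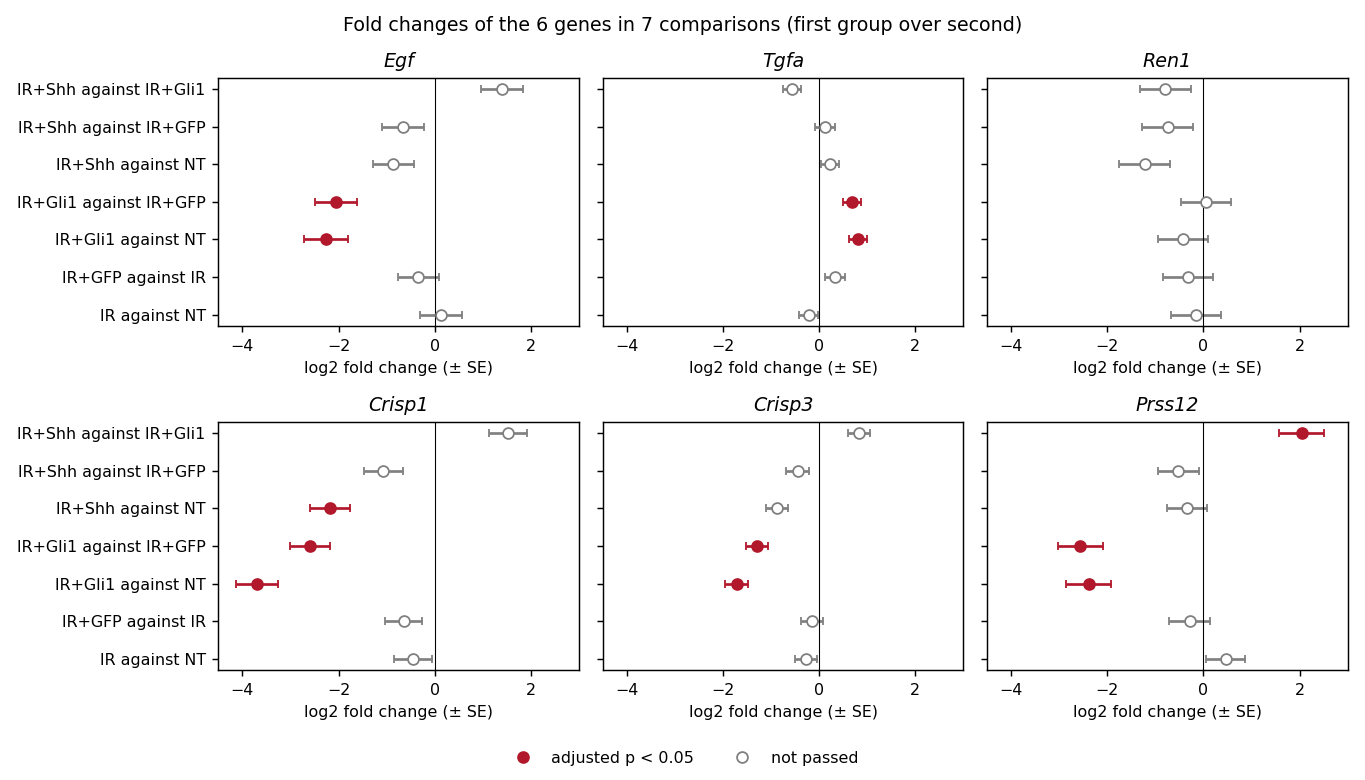
Log2 fold change with its standard error for each of the 6 genes in the 7 comparisons, first group over second; filled points have an adjusted p under 0.05. Passing changes were mostly those of IR+Gli1 against IR+GFP and NT.

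Against IR+GFP, the IR+Shh samples gave no call for any of the 6 genes, nor for any other: 0% of all 14300 genes passed. At an unadjusted p under 0.05 there were 872 genes, 1 of them among the 6; DESeq2 called 32 genes and limma-voom 0, none of them among the 6. Crisp1 was that gene, with 309.7 ± 53.5 CPM in IR+Shh, against 649.8 ± 29.2 CPM in IR+GFP (SD, n = 2 samples each; log2 fold change -1.07 ± 0.40, edgeR adjusted p = 0.808). Egf averaged 33159.7 ± 4917 CPM in IR+Shh, against 52237 ± 2787 CPM in IR+GFP (-0.66 ± 0.43, adjusted p = 0.84). The other fold changes were -0.74 ± 0.53 for Ren1, -0.52 ± 0.42 for Prss12, -0.45 ± 0.23 for Crisp3 and 0.12 ± 0.20 for Tgfa. All but Tgfa had samples that did not overlap between the groups, as did 42.1% of all genes. The fit of these groups alone called Crisp1 (adjusted p = 0.0493).

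Set directly against IR+Gli1, IR+Shh differed for 1 of the 6 genes, where 7.76% of all genes passed (2.76% higher and 4.99% lower). As both were compared with the same IR+GFP samples, this is also the test of whether their differences from IR+GFP were unequal. Prss12 was 4.12-fold higher, at 4.02 ± 1.09 CPM in IR+Shh, against 1.04 ± 0.654 CPM in IR+Gli1 (SD, n = 2 samples each; log2 fold change 2.04 ± 0.47, edgeR adjusted p = 0.036). The others did not pass: Crisp3 (0.83 ± 0.23, adjusted p = 0.058), Crisp1 (1.52 ± 0.40, 0.0595), Egf (1.40 ± 0.43, 0.083), Tgfa (-0.57 ± 0.19, 0.095) and Ren1 (-0.79 ± 0.52, 0.387). All but Ren1 did not overlap between the groups, as for 58.5% of all genes. The calls moved with samples left out, in fits that leave 1 sample in a group. Prss12 no longer passed without NT 2-3, IR 1-2, IR 3, IR+GFP 1-2, IR+GFP 3, IR+Gli1 1-2, IR+Shh 1-3 or IR+Shh 2. Without IR+Gli1 1-2, Ren1 stood at -1.41 and Prss12 at 1.43, while without IR+Gli1 3 Ren1 stood at 0.33 and Prss12 at 2.80. By total reads Prss12 was 2.71-fold higher (1.44).

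Neither irradiation alone nor the GFP transfer gave a call among the 6 genes. For IR+GFP against IR, 0% of all genes passed, 298 were under an unadjusted p of 0.05, and DESeq2 called 7 and limma-voom 0, none of them among the 6. The largest difference was that of Crisp1, with 649.8 ± 29.2 CPM in IR+GFP, against 1022 ± 487 CPM in IR (SD, n = 2 samples each; -0.65 ± 0.39, edgeR adjusted p = 1). Samples of the groups did not overlap for Tgfa and Crisp1, as for 32.8% of all genes. For IR against NT, 0.678% of all genes passed (0.517% higher and 0.161% lower) and again 0 of the 6, with none under an unadjusted p of 0.05 and none called by DESeq2 or limma-voom. Egf averaged 66115 ± 18424 CPM in IR, against 60260.2 ± 1720.2 CPM in NT (0.13 ± 0.43, adjusted p = 0.914), and Crisp1 1022 ± 487 CPM in IR, against 1399 ± 376 CPM in NT (-0.45 ± 0.39, adjusted p = 0.6). Tgfa and Crisp3 did not overlap between the groups, as for 51.2% of all genes. All 3 comparisons with NT include NT 2-3, in which 5 sublingual gland markers summed to 40467 CPM, against 5238 to 10934 CPM in the other samples. In those other samples nearly all of the sum came from 2310057J18Rik, whose group means were 7163 to 8815 CPM. Muc19, Dcpp1, Dcpp2 and Dcpp3 had 1370.3, 4006, 13049.8 and 16036 CPM in NT 2-3 and at most 80.3 CPM elsewhere. Elsewhere they were highest in 1 IR+GFP sample, at 21.6, 17.8, 64.0 and 80.3 CPM, against 0.369, 0.369, 0 and 0.0615 CPM in the other. Without NT 2-3, IR against NT called 21 genes, and without NT 1 538, against 97 with both; over all samples left out in turn it called 9 (without IR 3) to 538, and in each case none of the 6. The IR samples were far apart for Egf, Crisp1 and Prss12, with IR 1-2 the higher in each.

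Compared with untreated glands, IR+Gli1 again showed 4 genes lower and 1 higher, where 11.4% of all genes fell and 12.3% rose (23.7% in either direction). Crisp1 was 13-fold lower, at 108 ± 46.6 CPM in IR+Gli1, against 1399 ± 376 CPM in NT (SD, n = 2 samples each; log2 fold change -3.70 ± 0.44, edgeR adjusted p = 0.00156). Prss12 was 5.23-fold lower (-2.39 ± 0.46, adjusted p = 0.00762), Egf 4.8-fold (-2.26 ± 0.45, adjusted p = 0.00788) and Crisp3 3.28-fold (-1.71 ± 0.24, adjusted p = 0.0016). Tgfa was 1.74-fold higher (0.80 ± 0.19, adjusted p = 0.0155), and Ren1 did not pass (-0.43 ± 0.52, adjusted p = 0.585). All but Ren1 did not overlap between the groups, as for 59.5% of all genes. This comparison also includes NT 2-3. Without NT 2-3, Tgfa fell short (0.77). Tgfa also missed without NT 1 (0.82) or IR+Gli1 1-2 (0.61), and with the groups fitted alone 2 of the 6 passed, Crisp1 and Prss12. Egf was at -3.25 without IR+Gli1 3 and -1.69 without IR+Gli1 1-2, and Prss12 at -3.15 and -1.77. By total reads the same 5 kept their directions, with Crisp1 8.06-fold lower, Prss12 3.18-fold, Egf 3.05-fold and Crisp3 1.99-fold, and Tgfa 2.97-fold higher.

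For IR+Shh against NT, 1 of the 6 genes fell, where 0.902% of all genes fell and 2.26% passed in either direction. Crisp1 was 4.52-fold lower, at 309.7 ± 53.5 CPM in IR+Shh, against 1399 ± 376 CPM in NT (SD, n = 2 samples each; log2 fold change -2.18 ± 0.41, edgeR adjusted p = 0.0429). Crisp3 (-0.88 ± 0.23, adjusted p = 0.0801), Ren1 (-1.22 ± 0.53, 0.258), Egf (-0.86 ± 0.43, 0.296), Prss12 (-0.34 ± 0.42, 0.7) and Tgfa (0.22 ± 0.19, 0.564) did not pass. None of the 6 overlapped between the groups, as for 53.5% of all genes. Crisp1 missed the threshold without NT 2-3, IR+GFP 1-2, IR+GFP 3, IR+Shh 1-3 or IR+Shh 2, with fold changes of -2.36 to -1.88. More of the 6 passed when IR+Gli1 1-2 or IR+Gli1 3 was left out, 1 at a time. The fold changes hardly moved, at -0.87 and -0.88 for Crisp3, -0.85 and -0.86 for Egf, and -1.21 and -1.22 for Ren1.

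Together the 6 genes took 5.34% and 6.45% of all gene reads in the IR+Shh samples, 3.34% and 4.78% in IR+Gli1, 8.28% and 7.51% in IR+GFP, 11.1% and 8.02% in IR, and 10.2% and 9.85% in NT. Nearly all of it came from Egf and Crisp3, which alone held 3.33% and 4.75% in IR+Gli1 and 10.1% and 9.69% in NT. A list of 14 known products of the tubules, all tissue kallikreins, took 6.46% and 9.27% in IR+Gli1 and 16.7% and 21.6% in NT. Both shares were lowest in IR+Gli1 1-2. The 14 are called other granular tubule products below, but whether the Tgfa and Prss12 transcripts came from the tubules was not tested.

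**Figure D3:**
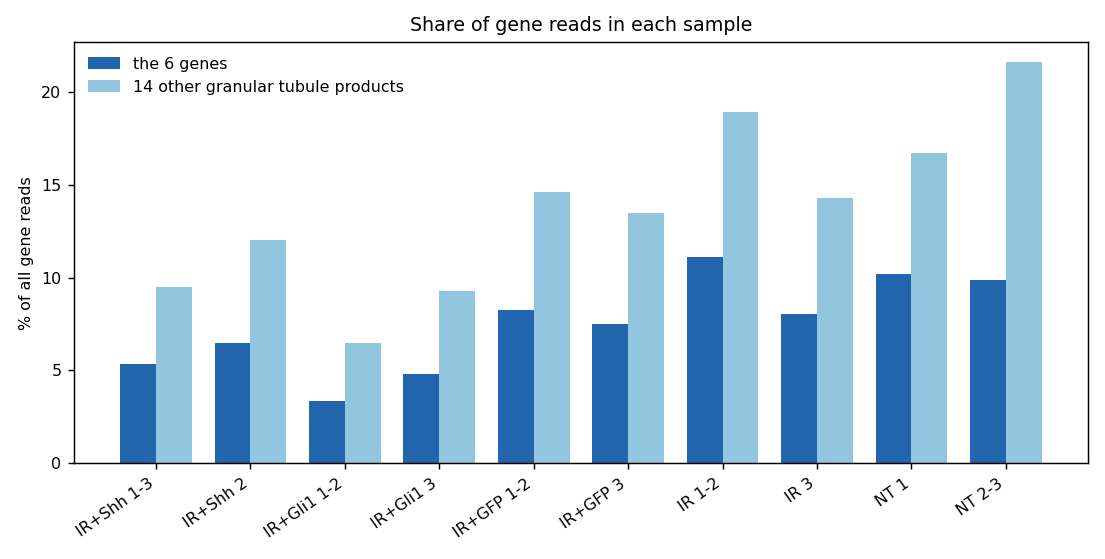
Percentage of all gene reads taken in each sample by the 6 genes (dark bars) and by 14 other granular tubule products (light bars). The 6 genes took 3.34% to 4.78% in IR+Gli1 and 9.85% to 10.2% in NT.

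The other granular tubule products differed along with Egf, Crisp1, Crisp3 and Prss12. Of these 14, 13 fell and 1 did not pass in IR+Gli1 against IR+GFP, with a median log2 fold change of -1.82 over the 14, beside -1.67 over the 6 genes and 0.01 over all genes tested. Klk1b9, a tissue kallikrein that cleaves the EGF precursor, fell by 2.48 ± 0.37 on the log2 scale (adjusted p = 0.00545). Klk1, the true tissue kallikrein, which striated ducts also make, stood at 3002 CPM in IR+Gli1, against 3697 CPM in IR+GFP (-0.30 ± 0.39, adjusted p = 0.673), and per total reads at 1.36 times IR+GFP. Klk1b9 had 1.28 and 2.70 times the reads of Klk1 in IR+Shh, 0.887 and 1.24 times in IR+Gli1, 4.95 and 5.08 times in IR+GFP, 11.3 and 3.74 times in IR, and 6.39 and 9.0 times in NT. The kallikrein genes are close copies whose shared reads were not counted, so their levels are uncertain.

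None of the 14 passed in IR+Shh against IR+GFP by edgeR (1 under an unadjusted p of 0.05), with a median log2 fold change of -0.63 beside -0.59 over the 6 genes. Against IR+Gli1, IR+Shh had 2 of the 14 higher, Klk1b9 (1.73 ± 0.36, adjusted p = 0.0267) and Klk1b11 (1.15 ± 0.27, adjusted p = 0.0372). Against NT, 13 fell in IR+Gli1 and Klk1 did not pass. As for the 6 genes, 0 of the other granular tubule products passed in IR+Gli1 against IR+GFP with these groups fitted alone, where 1 of all 13766 genes did. Fewer of them passed without IR+GFP 1-2, IR+GFP 3 or IR+Gli1 1-2, as for all genes.

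**Figure D4:**
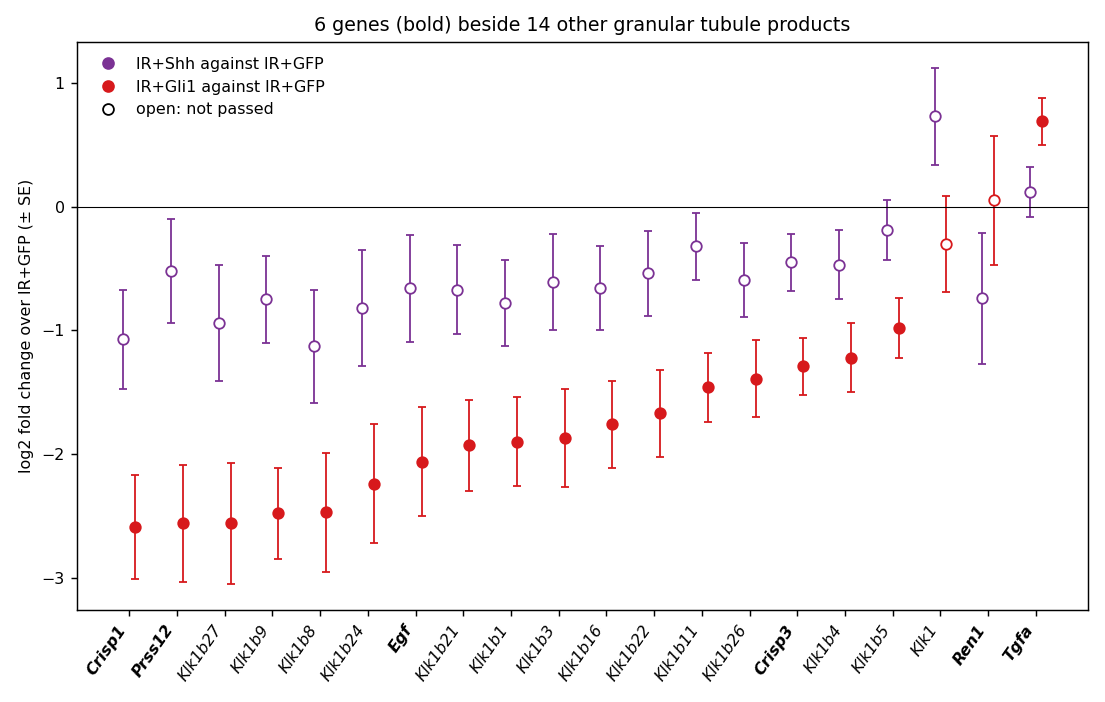
Log2 fold changes with standard errors over IR+GFP for the 6 genes (bold) and 14 other granular tubule products, in IR+Shh (purple) and IR+Gli1 (red); open points did not pass. Klk1, Ren1 and Tgfa stand apart from the falls of the other 17 genes in IR+Gli1.

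Around the ligands, 4 genes of the EGF receptor family were measured. Egfr, the receptor of EGF and TGF alpha, had 19.6 and 19.8 CPM in IR+Shh, 32.5 and 22.9 CPM in the IR+Gli1 samples, 13.8 and 14.4 CPM in IR+GFP, 13.6 and 15.7 CPM in IR, and 15.7 and 12.3 CPM in NT. Both IR+Gli1 samples were the highest and both IR+Shh samples next. It rose in IR+Gli1 against IR+GFP (log2 fold change 0.98 ± 0.18, edgeR adjusted p = 0.00959) and was the 1 of 4 receptor genes to pass. Erbb4, a neuregulin receptor that also binds betacellulin, averaged 0.925 CPM in IR+Gli1, against 3.78 CPM in IR+GFP (-2.13 ± 0.61, adjusted p = 0.0545), and passed as lower in 12 of 25 alternative settings (-3.37 to -1.38). Its mean was 1.38 CPM in NT and 3.89 CPM in IR, and IR+Gli1 against NT passed in 0 of 23 alternative settings.

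Of 5 other EGF receptor ligand genes, 3 were tested and 1 rose, Btc, which encodes betacellulin, at 4.58 and 3.63 CPM in IR+Gli1, against 1.54 and 2.09 CPM in IR+GFP (1.19 ± 0.30, adjusted p = 0.0312). Of 4 genes that act in ligand release 2 rose: Adam17, the protease that sheds TGF alpha (0.45 ± 0.13, adjusted p = 0.0447), and Rhbdf2, the inactive rhomboid that carries it to the cell surface (0.71 ± 0.17, adjusted p = 0.0279). Of 25 alternative settings, Egfr passed in 23, Btc in 19, Rhbdf2 in 17 and Adam17 in 13. None of 6 feedback inhibitors of the receptor passed, although 2 were under an unadjusted p of 0.05, Errfi1 (0.29 ± 0.10, adjusted p = 0.0838) and Spry1 (-0.54 ± 0.19, adjusted p = 0.0954; per total reads 1.18 times IR+GFP). In IR+Shh against IR+GFP none of those tested among these 19 genes passed; Egfr stood at 0.48 ± 0.18 (adjusted p = 0.808).

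**Figure D5:**
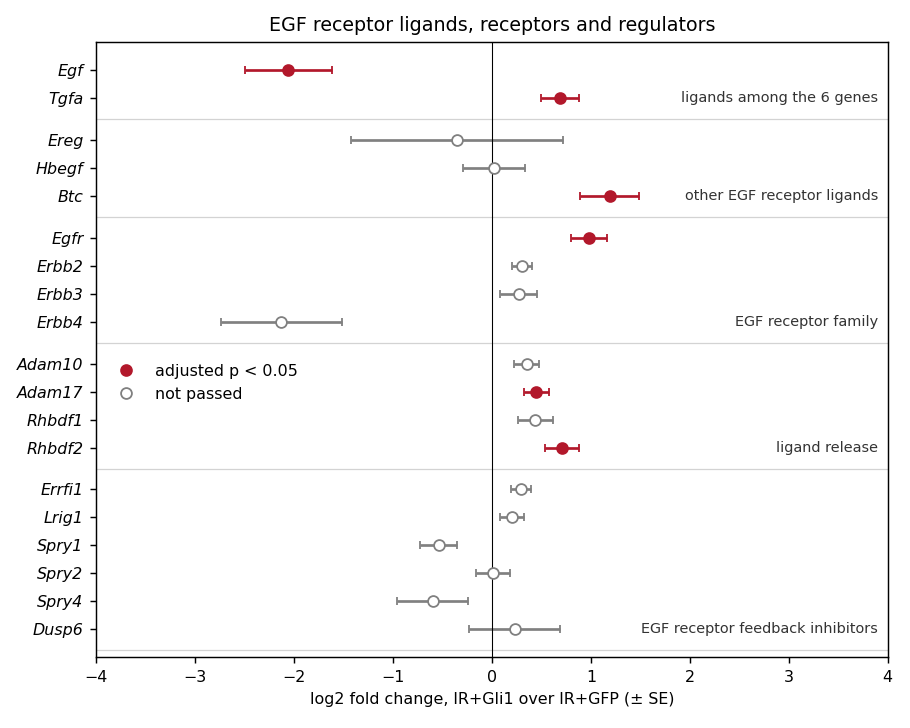
Log2 fold change, IR+Gli1 over IR+GFP, with standard error, for Egf, Tgfa and other genes of the EGF receptor system that were tested; filled points passed. Egf fell while Tgfa, Btc, Egfr, Adam17 and Rhbdf2 rose.

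Of 10 other genes of the renin angiotensin system, 5 were tested and 1 rose in IR+Gli1 against IR+GFP. This was Ace, the angiotensin-converting enzyme gene, at 26.5 and 23.6 CPM in IR+Gli1, against 14.8 and 18.1 CPM in IR+GFP (0.61 ± 0.15, edgeR adjusted p = 0.0297). Agt, which encodes the renin substrate angiotensinogen, averaged 76.5 CPM in IR+Gli1, against 87.6 CPM in IR+GFP (-0.20 ± 0.23, adjusted p = 0.628; per total reads 1.46 times IR+GFP). Per kilobase, Egf exceeded Ren1 by 131 and 186 times in the IR+Shh samples, 37.7 and 33.0 times in IR+Gli1, 135 and 164 times in IR+GFP, 156 and 142 times in IR, and 131 and 114 times in NT. The ratio was thus lowest in the IR+Gli1 samples, alike in the sample where Ren1 was low and the sample where it was high.

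Among 8 other genes of the CRISP and CAP group, 5 were tested and 2 rose in IR+Gli1 against IR+GFP, Glipr2 (2.56 ± 0.67, edgeR adjusted p = 0.0386) and Glipr1 (1.60 ± 0.46, adjusted p = 0.0455), and none fell. Crispld1, a gene for a secreted CAP protein, was higher in IR+Shh against IR+Gli1 (2.08 ± 0.42, adjusted p = 0.0225). Of 10 genes for hormone receptors and for enzymes of steroid and thyroid hormones, 8 were tested and 1 passed in IR+Gli1 against IR+GFP: Srd5a1, a steroid 5 alpha-reductase gene, was higher, at 3.91 and 3.75 CPM in IR+Gli1, against 1.71 and 1.66 CPM in IR+GFP (1.18 ± 0.28, adjusted p = 0.0251). Srd5a1 had 2.79 to 3.34 CPM in NT and 2.04 to 3.57 CPM in IR, so that IR+GFP was the lowest group. In IR+Gli1 against NT none of the 8 passed.

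For each of the 6 genes the most similar profiles among tested genes with a mean of at least 2 CPM were taken by Pearson r of log2 CPM over the 10 samples, which share their groups and scaling. Among the 5 most like Egf were Tmem120b (r = 0.992), Klk1b22, Klk1b3 and Capn3 (0.99), and Crisp1 was most like Klk1b1 (0.994), Klk1b8, Klk1b16, Syt16 and Klk1b26 (0.986). Crisp3 was most like Edem1 (0.99), Sc5d, Wfs1, Gnat2 and Preb (0.986), and Prss12 like Jam2 (0.981), Ndrg2, Sqor, Col5a1 and Serpinb6a (0.978). Tgfa was most like Traf2 (0.978), Hspa8, Rdh10, Ms4a7 and Inpp5d (0.954). Ren1 had looser matches, Ap1m2 (0.894), Hacd2, Htra3, Agpat1 and Mgp (0.836).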

How the data were processed

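The deposited tables hold whole-number counts of reads per Ensembl gene, 1 table per library, and per the submitters' processing notes the authors' tools were HTSeq 0.10.0, TopHat2 2.0.13, Bowtie 0.12.2 and, with no version, DESeq2 (builds GRCm38 and mm10). The strand setting and annotation release are not given in the sources used here. The labels name RNeasy columns and a TruSeq RNA kit with 1 ug of total RNA. Between 6.98% and 13.9% of reads were given to no gene and left out. Symbols came from GENCODE vM21 (96.2% of IDs matched). Near-identical libraries (mean chi-square per gene 0.215 to 0.337 over genes with at least 20 reads, against 22 to 223 in the 10 other pairs) were merged by the rounded mean of their counts.

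The 14300 genes kept by filterByExpr were scaled with TMM and fitted over all 5 groups with edgeR 4.0.16 in R 4.3.3 (robust quasi-likelihood tests, two-sided, 5 residual degrees of freedom, common biological coefficient of variation 0.191), with Benjamini-Hochberg adjustment over all genes and a threshold of 0.05. The fit was tested on simulated data. Log2 levels used a prior count of 2. Alternatives were other scalings and filters, DESeq2 1.42.0, limma-voom (limma 3.58.1), 15 separate libraries with and without the replicate number as a block, the deeper library of each pair, the compared groups alone, a joint IR and IR+GFP control, Crisp1 and Crisp3 summed, and each sample left out; counts of the other gene lists under these, and a replicate block on merged samples of IR+Gli1 and IR+GFP, were added after seeing the data. After merging, the deviations of IR+Gli1 3 and IR+GFP 3 from their group means correlated (r = 0.603 across genes), which is 1 independent pairing and not 3, so the samples were not treated as paired. The 6 genes and the 13 other lists were chosen with earlier results of these data known. Of each list, genes that passed were named, up to 4 by smallest adjusted p, or else up to 2 by smallest p; similar genes were the 5 with highest r. Some genes of the lists and 1 similar gene are not reported here. Sequences are from RefSeq promoters and GENCODE transcripts.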

Additional observations from a re-analysis of the deposited data

How the results depend on the processing

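Over the 7 pairwise comparisons, 984 values of the 6 genes under alternative settings included 870 that kept their direction and side of the threshold, 54 that newly passed, 42 that no longer passed and 18 that changed sign. The causes of these changes were not tested.

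For IR+Gli1 against IR+GFP, 5 of the 6 genes passed, 0 with these groups fitted alone, and 0 to 6 with samples left out in turn; in all genes the count went from 1993 to 1 with the groups alone, and to 91 without IR+GFP 1-2, but to 6518 with 15 separate libraries and 6495 with the replicate block added to them. Those fits count near-identical libraries as separate samples. The replicate numbers share no stated source: of 30 same-numbered pairs of libraries, 3 had deviations from the group means that correlated over 0.1, and these were the 3 pairs of IR+Gli1 with IR+GFP (0.394, 0.329 and 0.392). A replicate block on merged samples of these groups, added after seeing the data, called the same 5 of the 6 genes and 2412 genes in all. For 6 of 15 libraries the closest match bore the same number. Ren1 changed sign to -0.40 with the replicate block, -0.18 with the block on merged samples, -0.31 with 15 separate libraries, -0.18 with limma-voom, -0.11 with a joint IR and IR+GFP control, and -1.25 (adjusted p = 0.00656) without IR+GFP 3 and IR+Gli1 3; leaving out samples in turn gave -1.07 to 0.67. For IR+Shh against IR+GFP, 0 passed, 3 without the low-count filter, 1 (Crisp1) with 15 separate libraries and 1 with the groups alone; Tgfa ranged from -0.07 to 0.29 with samples left out. For IR+Shh against IR+Gli1, 1 passed (7.76% of all genes), 5 without the filter (11.5%) and 4 with total-count scaling (56.6%, median of all genes -0.67). There were 5 with the replicate block (43.1%), 5 with 15 separate libraries (43%) and 4 with DESeq2 (10.9%). With limma-voom 2 passed (6.56%), and 0 with the groups alone (0.0651%). The count also moved with samples left out, in fits that leave 1 sample in a group. Ren1 was 0.33 without IR+GFP 3 and IR+Gli1 3, and -1.41 to 0.33 with samples left out.

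With samples left out, IR+GFP against IR gave -0.32 to 0.04 for Crisp3 and -0.66 to 0.23 for Prss12, and IR against NT gave -0.18 to 0.39 for Egf, -0.40 to 0.04 for Ren1 and -0.06 to 0.83 for Prss12, none passing. For IR+Gli1 against NT, 5 passed and 2 with the groups alone, and Ren1 was 0.22 with total-count scaling and -1.55 to 0.20 with samples left out. For IR+Shh against NT, 1 passed (2.26% of all genes), 2 with total-count scaling (1.65%) and 4 without the filter (7.25%). There were 3 with the replicate block (30.7%), 3 with 15 separate libraries (31.5%) and 2 with DESeq2 (5.75%). With limma-voom 0 passed (1.67%), and 2 with the groups alone (2.09%). With Crisp1 and Crisp3 summed, which then follow Crisp3, 0 passed. The count also moved with samples left out, in fits that leave 1 sample in a group. In the test for any difference the number of the 6 that passed also moved with samples left out, in fits that leave 1 sample in a group.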
